A study of Danio rerio with 9 samples.

Results

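The genes described here are the activators of the circadian clock in zebrafish larvae, arntl, clock and npas2, together with the nfil3 genes, whose transcripts peak with them. They were taken as the rows of the 3 deposited tables that name a single gene beginning with arntl, clock, npas2 or nfil3, and 10 of 12126 gene names met this rule: arntl1a, arntl1b, arntl2, clocka, clockb, npas2, nfil3, nfil3-2, nfil3-5 and nfil3-6. Whole larvae of the AB strain were exposed to perfluorobutane sulfonate (PFBS), a short-chain perfluorinated surfactant, and polyadenylated RNA was sequenced at 96 h after fertilization. The 3 groups were a solvent control (0.01% DMSO), PFBS at 16 µM and PFBS at 32 µM. Each group had 3 samples, 1 from each of 3 experiments, and a sample pooled 15 animals. The labels state the DMSO for the control alone, so whether the ratios compare PFBS with equal solvent is not known. All groups were dechorionated by hand, had their medium renewed daily and, per the labels, were kept at 37 °C, which is warm for zebrafish and may be an entry error. The sources used here give neither the lighting nor the hour of collection.

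The vertebrate clock is a feedback loop of transcription. ARNTL (also called BMAL) pairs with CLOCK or with its paralog NPAS2 through bHLH and PAS domains, and the pair activates genes that carry E-box motifs, among them those of the PER and CRY repressors and of the nuclear receptors NR1D1 and NR1D2 (Rev-erb alpha and beta). In mammals the Rev-erb proteins repress Arntl, Clock, Npas2 and Nfil3, while ROR receptors activate them from the same promoter elements. NFIL3 (E4BP4) is a bZIP repressor that competes with the PAR bZIP activators DBP, TEF and HLF for D-box motifs. In zebrafish most of these genes exist as several paralogs, peripheral tissues hold clocks that respond directly to light, and clock genes cycle in larvae raised under light and dark.

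The tables hold 1 FPKM value per group (fragments scaled to transcript length and library size), so no level or ratio below has an error of its own, the depth of each sample is unknown and values of single samples cannot be shown. A difference is a log2 ratio of the second group to the first, and "rose" or "fell" is written of genes with a q-value under 0.05 in the authors' deposited tables. The labels do not tie a sample to its experiment. In whole-animal RNA, fewer cells of a type and less RNA per cell cannot be told apart. All 10 organ markers set for whole larvae (liver, muscle, blood, retina and others) were present in the authors' deposited table at 29.2 to 4580 FPKM in the control. At 32 µM 1 of the 10 was called, the intestinal gene fabp2 (0.23), the others lay between -0.24 and 0.18, and the summed level was 12228 FPKM in the control and 11391 at 32 µM. In that comparison 4 of the 10 had an unadjusted p under 0.05, beside 11.8% of all named genes. At 16 µM and between the doses 0 of the 10 were called by the authors' test. At least 2 had an unadjusted p under 0.05 in each, beside at least 1.83% and 3.2% of all named genes. The sums were 12144 and 11480 FPKM and 11640 and 11466 FPKM. The ratios then ran from -0.62 to 0.23 and from -0.22 to 0.38 in the authors' deposited tables, with the blood gene hbae1 at -0.62 (709 to 461 FPKM, q = 0.159) and 0.38 (q = 0.107). The part of organ composition in the results below was not tested.

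In control larvae, nfil3-5 and nfil3 were the most abundant members and npas2 and clocka the least abundant. Control levels, in the authors' deposited table for 32 µM, were 28.8 FPKM for nfil3-5, 18.9 for nfil3, 15.6 for arntl1a, 11.2 for nfil3-2, 11.0 for clockb and 10.5 for arntl1b. The lower ones in the same table were 4.86 for nfil3-6, 4.79 for arntl2, 2.25 for npas2 and 1.33 for clocka. That table held only rows reaching 1 FPKM in at least 1 of its groups. Among its 11685 named genes, nfil3-5 lay at percentile 82.3 of the mean of the control and 32 µM levels and clocka at 3.23. Without values per sample it cannot be said which neighbours in this order differ beyond their spread. Of the summed arntl level in the control, arntl1a made up 50.5%, arntl1b 34.0% and arntl2 15.5%, and clockb made up 75.5% of the clock and npas2 sum. In the authors' deposited table for 16 µM, where the npas2 row is shorter, the control share of clockb was 80.5%.

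**Figure D1:**
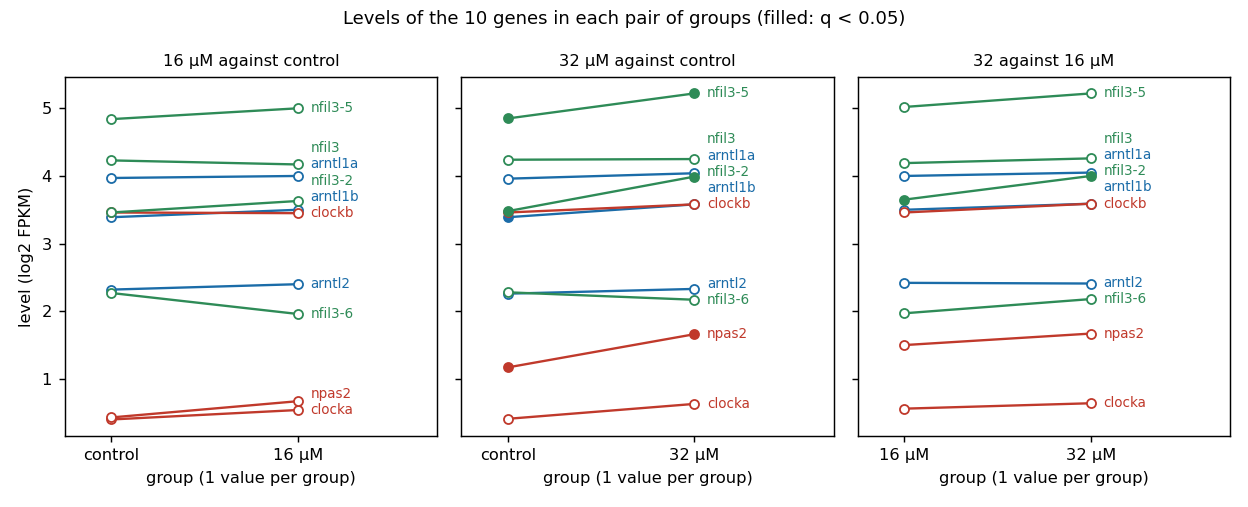
Level of each gene (vertical axis, log2 FPKM) in the first and second group of each comparison (horizontal axis), 1 panel per deposited table; each line joins the authors' 2 group values of 1 gene, filled where q is under 0.05, in blue for arntl, red for clock and npas2 and green for nfil3 genes. The steepest rises are those of nfil3-2 (3.48 to 3.99) and npas2 (1.17 to 1.66) at 32 µM, and npas2 sits lower in the first panel than in the others.

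At 32 µM PFBS, 4 of the 10 genes rose against the control and none fell. They were nfil3-2 (0.51), npas2 (0.49), nfil3-5 (0.36) and arntl1b (0.19) in the authors' deposited table. For comparison, 2.31% of the 11685 named genes in that table were called, 1.00% as higher and 1.31% as lower. Of the 10 organ markers 1 was called in this comparison, the intestinal gene fabp2, and it was also higher (0.23). Its part in the ratios of the 4 genes was not tested. At 16 µM no member was called, beside 0.376% of 11968 named genes (0.159% higher and 0.217% lower). Between 32 and 16 µM, nfil3-2 (0.34) was the member called, beside 0.427% of 11946 named genes (0.301% higher and 0.126% lower).

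The members that did not pass the test at 32 µM were mostly on the positive side as well. Ratios above 0 were found for 9 of the 10 genes at 32 µM in the authors' deposited table, with a median of 0.15 and a range from -0.11 to 0.51. Of all named genes reaching 1 FPKM in that table, 40.1% had a positive ratio and the median was -0.02. At 16 µM 7 ratios were positive, beside 38.5% of all named genes reaching 1 FPKM. The median was 0.10 beside -0.02 for those genes, and the range was -0.31 to 0.24 in the authors' deposited table. The highest ratio, 0.24, is that of an npas2 row shorter than the one at 32 µM, as described below. Both comparisons use the same control samples. Members with an unadjusted p under 0.05, recovered from the q-values, numbered 6 at 32 µM (11.8% of all named genes). They numbered at least 1 at 16 µM (1.83%) and at least 3 between the doses (3.2%). The q-values of the other members were tied at 0.998 and 0.999 in these 2 comparisons. A recovered p-value is only an upper bound there, so these counts and shares are minima and not comparable with those at 32 µM.

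**Figure D2:**
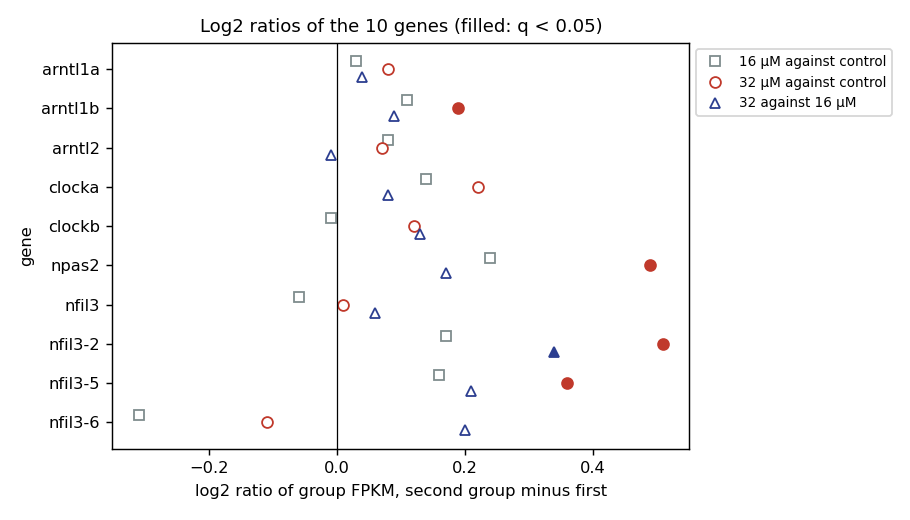
Log2 ratio of group FPKM (horizontal axis) of each gene (vertical axis) in the 3 comparisons, as grey squares for 16 µM against control, red circles for 32 µM against control and blue triangles for 32 against 16 µM, filled where q is under 0.05. Filled circles mark nfil3-2, npas2, nfil3-5 and arntl1b at 32 µM, the filled triangle is nfil3-2 between the doses, and nfil3-6 alone is below -0.2 (at 16 µM, -0.31, not called).

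Of the arntl genes, which encode the shared partner of CLOCK and NPAS2 and are named bmal1a, bmal1b and bmal2 in the current RefSeq annotation, only arntl1b passed the test, at 32 µM. The arntl1b row (chromosome 7, 67942627 to 68002856, danRer7) had, in the authors' deposited tables, 10.5 FPKM in the control and 12 at 32 µM, a ratio of 0.19 (q = 0.0366). This was a small change among those called: by size it ranked 112 of the 117 named genes that rose, and no called gene within 0.5 log2 units of its level had a smaller ratio in either direction. At 16 µM arntl1b had 11.3 FPKM (0.11, q = 0.998) in the authors' deposited table, between the other groups. Its ratio between the doses was 0.09 (q = 0.999).

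The paralog arntl1a (chromosome 25, 18381044 to 18406092) had 15.6 FPKM in the control and 16.4 at 32 µM in the authors' deposited table, a ratio of 0.08 (q = 0.705). At 16 µM it had 16 FPKM, with a ratio of 0.03 (q = 0.998). For arntl2 (chromosome 18, 15243261 to 15289795) the authors' deposited table gave 4.79 and 5.03 FPKM, a ratio of 0.07 (q = 0.740), and 0.08 at 16 µM (q = 0.998). A second row named arntl2 with the same locus, at 1.45 and 1.69 FPKM in the authors' deposited table, had a ratio of 0.22 at 32 µM (q = 0.966) and -0.16 between the doses (q = 0.999). The tables give no strand, so whether that row is another transcript of arntl2 cannot be told. The summed arntl level was 30.8 FPKM in the control and 33.4 at 32 µM, and the share of arntl1b in it was 34.0% and 35.8%.

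Among the partners of ARNTL, npas2 rose at 32 µM while clocka and clockb did not pass the test. In the authors' deposited table npas2 (chromosome 5, 24575058 to 24618429) went from 2.25 to 3.16 FPKM, a ratio of 0.49 (q = 0.00521), which ranked 24 of the 117 named genes that rose. That q-value, shared by nfil3-2 and nfil3-5, is the smallest of any row in this comparison, so it gives no order among them. Between the doses npas2 had 2.83 and 3.18 FPKM, a ratio of 0.17 (q = 0.999) in the authors' deposited table. Its share of the clock and npas2 sum was 15.4% in the control and 19% at 32 µM. The control share was 9.85% in the authors' deposited table for 16 µM, where the npas2 row is shorter.

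The more abundant clock paralog, clockb (chromosome 1, 18174916 to 18210783), had 11.0 FPKM in the control and 12 at 32 µM in the authors' deposited table, a ratio of 0.12 (q = 0.360). At 16 µM it had 10.9 FPKM and a ratio of -0.01 (q = 0.998), so that this group was not above the control. For clocka (chromosome 20, 22202443 to 22250792) the authors' deposited table gave 1.33 and 1.55 FPKM, a ratio of 0.22 (q = 0.358), with 0.14 at 16 µM (q = 0.998). The ratio of clocka was thus larger than that of arntl1b, which was called. Of the 834 named genes within 0.5 log2 units of the level of clocka, 5 were called, with ratios of at least 0.45 in size, whereas near arntl1b 46 of 2827 were called. A change of the size seen in clocka was therefore smaller than any called at its level.

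The row of npas2 does not cover the same stretch in the 3 tables, which bears on its values at 16 and 32 µM. In the authors' deposited table for 16 µM it ended at 24616356 and spanned 41299 bases, and an unnamed row began 57 bases beyond it (24616414 to 24618429). In the other tables a single npas2 row ran through that stretch and spanned 43372 and 43345 bases. The short npas2 row had 1.35 FPKM in the control and 1.59 at 16 µM, a ratio of 0.24 (q = 0.998) in the authors' deposited table. The unnamed row had 4.89 and 6.32 FPKM, a ratio of 0.36 (q = 0.439). The control level of npas2 differed by 0.74 log2 units between the tables for 16 and 32 µM. Of 11568 named genes with a mean level of at least 1 FPKM in both tables, 113 (0.977%) differed by at least as much, and the median difference was 0.01. For the other 9 members the control levels of these tables differed by at most 0.06. The ratio of npas2 at 16 µM is thus that of a shorter row than its ratio at 32 µM, and the values are not matched. The row called at 32 µM takes in the stretch of the unnamed row, which had the higher FPKM of the 2 rows at 16 µM. The part of that stretch in the npas2 level and ratio at 32 µM was not tested.

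**Figure D3:**
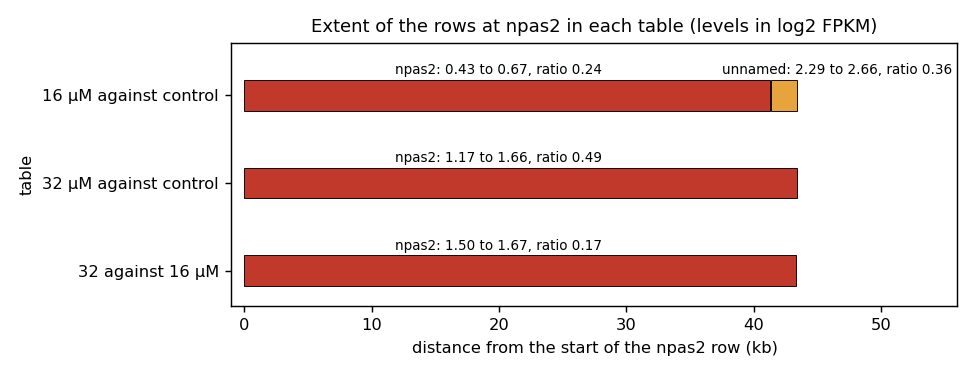
Extent of the rows at the npas2 locus in each deposited table (vertical axis), as distance in kb from the start of the npas2 row (horizontal axis); red bars are rows named npas2, the orange bar is an unnamed row, and the text gives the log2 FPKM of the first and second group with the log2 ratio. The table for 16 µM splits the locus into a long row at 0.43 to 0.67 and a short row at 2.29 to 2.66.

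The nfil3 genes, which encode the bZIP repressors, divided into nfil3-2 and nfil3-5, which rose at 32 µM, and nfil3 and nfil3-6, which did not pass the test. The nfil3-2 row (chromosome 3, 13873217 to 13884264) had, in the authors' deposited tables, 11.2 FPKM in the control and 15.9 at 32 µM, a ratio of 0.51 (q = 0.00521), ranked 21 of the 117 named genes that rose. It had 12.4 FPKM at 16 µM, with a ratio of 0.17 (q = 0.998) in the authors' deposited table. In the direct comparison of the doses nfil3-2 had 12.6 and 16 FPKM, a ratio of 0.34 (q = 0.0194), so the level at 32 µM was above both other groups.

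The most abundant member, nfil3-5 (chromosome 6, 9616157 to 9624189), went from 28.8 in controls to 37.3 FPKM with 32 µM, in the authors' deposited table a ratio of 0.36 (q = 0.00521). At 16 µM it had 32 FPKM (0.16, q = 0.998), and between the doses its ratio was 0.21 (q = 0.251). The group at 16 µM therefore lay between the others without passing either test. The unnumbered nfil3 (chromosome 10, 5417644 to 5422658) had 18.9 FPKM in the control and 19 at 32 µM in the authors' deposited table, a ratio of 0.01 (q = 0.981), and -0.06 at 16 µM (q = 0.998).

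The neighbouring gene of nfil3-2, nfil3-6, had a different course. Its row (chromosome 3, 13889406 to 13895597) lies 5141 bases beyond the end of the nfil3-2 row, and the RefSeq annotation of GRCz12tu lists no protein-coding gene between them. In the authors' deposited tables nfil3-6 had 4.82 FPKM in the control and 3.89 at 16 µM, a ratio of -0.31 (q = 0.0871). This was the member closest to the threshold at 16 µM and the lowest ratio of the 10. The blood marker hbae1 was on the same side in this comparison (-0.62) and between the doses (0.38), and its part in the values of nfil3-6 was not tested. At 32 µM nfil3-6 had 4.50 FPKM against 4.86 in the control (-0.11, q = 0.599), and between the doses 0.20 (q = 0.895). Whether the ratios of these neighbours, or of the other paralogs above, differ was not tested. The summed level of the 4 nfil3 genes was 63.8 FPKM in the control and 76.7 at 32 µM, a ratio of 0.27, and the share of nfil3 in it was 29.6% and 24.8%. The authors' deposited tables hold no row named nfil3-3 or nfil3-4, so these paralogs are not analysed here. How reads shared between the nfil3 paralogs were assigned is not given in the sources used here.

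**Figure D4:**
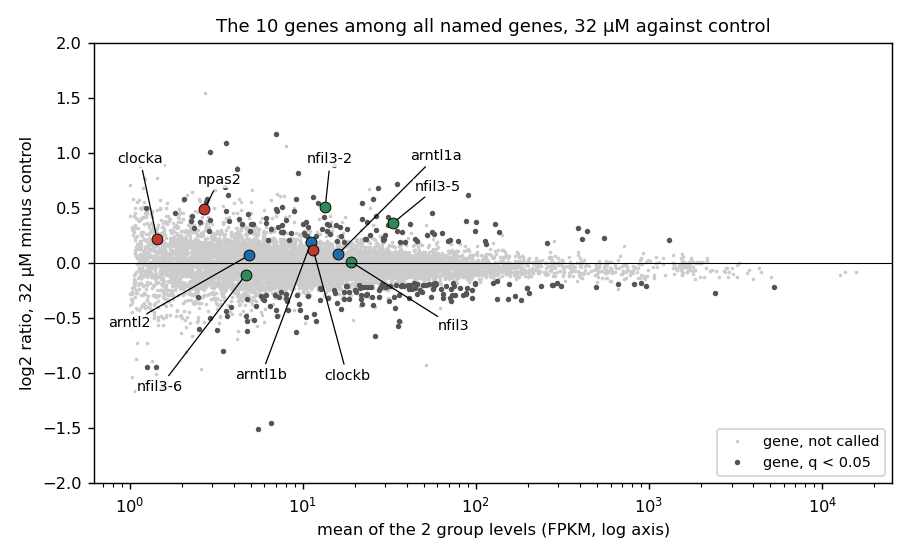
Log2 ratio of 32 µM to control (vertical axis) against the mean of both group levels (horizontal axis, FPKM, log axis) for named genes with a mean of at least 1 FPKM, in light grey where not called and dark grey where q is under 0.05, with the 10 genes as coloured points; 2 genes with ratios beyond 2 in size lie outside the axis. The points of npas2, nfil3-2 and nfil3-5 (0.49, 0.51 and 0.36) stand toward the upper edge of the cloud at their levels, and arntl1b (0.19) lies lower.

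Other genes of the clock were read from lists by role. The lists held 25 repressor names, 10 for outputs, 10 for kinases and turnover and 7 for other activators. Rows naming 1 gene were found for 15, 7, 7 and 3 of these, 32 genes in all. Of the 32, 7 fell and 0 rose at 16 µM, and 8 fell and 2 rose at 32 µM (authors' deposited tables). Over all named genes 0.217% were lower and 0.159% higher at 16 µM, and 1.31% lower and 1.00% higher at 32 µM. The median ratio of the 32 was -0.10 at 16 µM and -0.07 at 32 µM, beside -0.02 for all named genes reaching 1 FPKM in each. Of 3 ror genes, which encode activators of arntl and nfil3 in mammals, rorca rose at 32 µM from 21.3 to 24.6 FPKM (0.22, q = 0.00918) in the authors' deposited table. The more abundant rorab had -0.10 (q = 0.440) and rorb -0.24 (q = 0.966). The rorb row began at a different base in each table. Its control level was 0.908 FPKM in the table for 16 µM and 2.11 in that for 32 µM, so its values are not matched.

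By the authors' deposited tables, 5 of the 15 genes found from the repressor list fell and 0 rose with 32 µM PFBS, and 4 fell with 16 µM. Whether each of the 15 represses the clock in zebrafish was not examined here. Those falling at 32 µM included nr1d2b (42.2 to 29.4 FPKM, -0.53), cry3 (6.73 to 5.28 FPKM, -0.34, q = 0.0492) and bhlhe40 (-0.20) in the authors' deposited table. The Rev-erb alpha gene nr1d1 (-1.51) and the period gene per1b (-0.80) made up the rest of the 5. At 16 µM nr1d1 (-1.34), per1b (-0.64) and nr1d2b (-0.35) fell as well. The Rev-erb beta gene nr1d2a fell at 16 µM (-0.46) but had -0.06 at 32 µM (q = 0.774), and it rose between the doses (0.40, q = 0.0194) in the authors' deposited table. The signs of nr1d2a at 16 µM and between the doses were those of hbae1, whose part was not tested. Across the 15 genes the ratios at 32 µM ran from -1.51 to 0.67, and the highest did not pass the test (q = 0.111). The cryptochrome genes cry2a (0.12, q = 0.284) and cry1a (-0.15, q = 0.148) did not pass the test at 32 µM. These are the tables' names: in the current RefSeq annotation the row cry3 is cry2 and the row cry2a is cry3a.

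Of 7 output genes, the PAR bZIP genes dbpb (-0.95), tefa (-0.66) and dbpa (-0.43) were lower at 32 µM by the test in the authors' deposited table, and hlfb, a paralog of the same family, rose from 5.98 to 8.28 FPKM (0.47, q = 0.00521). At 16 µM dbpb (-0.80), tefa (-0.31) and dbpa (-0.30) had already fallen, while hlfb was not called (0.15, q = 0.998). Their relatives hlfa (0.06, q = 0.911) and tefb (0.07, q = 0.708) did not pass the test. The hlfa row is far longer (chromosome 3, 11693294 to 12511465) than that of hlfb (chromosome 12, 33846365 to 33856678). Whether its value is that of hlfa alone cannot be told. Between the doses hlfb rose (0.31, q = 0.0194) and tefa fell (-0.34, q = 0.0194), by the authors' deposited table. None of 7 genes for clock kinases and repressor turnover was called in any comparison by the authors' test. At 32 µM 3 of them had an unadjusted p under 0.05 (11.8% of all named genes). In the other comparisons their q-values were tied at 0.998 or 0.999. Their recovered p-values there are upper bounds and cannot be counted. The most abundant of the 7, the casein kinase genes csnk1da (-0.13, q = 0.180) and csnk1db (-0.16, q = 0.0726), had negative ratios at 32 µM.

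**Figure D5:**
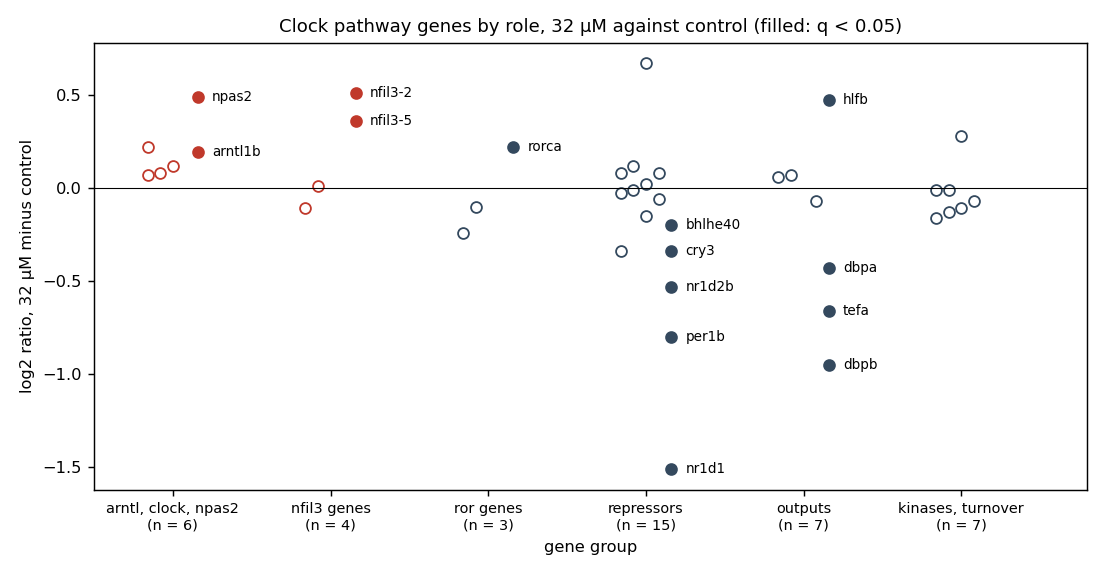
Log2 ratio of 32 µM to control (vertical axis) of clock pathway genes by role (horizontal axis, number of genes in brackets), filled and named where q is under 0.05, with the arntl, clock, npas2 and nfil3 genes in red; points are shifted sideways only to separate them. All filled red points lie above 0, all filled genes of the repressor list lie below 0, and the outputs hold filled points on both sides.

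The genes with the most similar course were sought among named genes called in the same tables, by the Euclidean distance between the 2 log2 ratios to the control at 16 and 32 µM. For nfil3-2, among 28 candidates, the closest was hlfb (0.15 and 0.47, distance 0.045), followed by ela3l (0.13 and 0.62) and zgc:112160 (0.13 and 0.38) in the authors' deposited tables. For npas2 they were elovl2 and st3gal2l (each 0.28 and 0.47) and alpi.2 (0.24 and 0.44), among 267 candidates, but these distances use the ratio of the shorter npas2 row at 16 µM, which is not matched to that at 32 µM. Closest to nfil3-5 were hadhab (0.15 and 0.35), cyp51 (0.17 and 0.34) and hrsp12 (0.18 and 0.34), and closest to arntl1b pck1 (0.12 and 0.19), vil1 (0.12 and 0.20) and dbi (0.09 and 0.17) in the authors' deposited tables. With 2 ratios that share their control samples, this likeness is a description of group values.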

How the data were processed

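Strand-specific libraries of polyadenylated RNA from 9 samples were grouped by the exposure label. Per the file headers, the authors deposited 1 log2 FPKM value per group, a log2 ratio and a q-value, in 1 table for each pair of groups; -10 stands for an FPKM of 0. The submitters' processing notes name Cufflinks and danRer7; which aligner, annotation and test the authors used is not given in the sources used here. On every row without a group value of -10, the deposited ratio was checked to equal the difference of the 2 group values within 0.01. The authors' call was checked on every row to follow from a q-value under 0.05.

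With Python 3.11.15 and pandas 2.3.3, rows naming 1 gene were kept, 1 per name by highest mean level. Unadjusted p-values were recovered by undoing a Benjamini-Hochberg adjustment of the deposited q-values (upper bounds where q-values are tied), a step tested on simulated data. RefSeq (GRCz12tu) served for names and neighbours only. The members and lists were chosen with earlier results of these data known, so no list was tested. Named were all members, list genes called in any table, up to 2 uncalled genes per list by level, and the 3 genes closest to each called member. No sequence is shown.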

Additional observations from a re-analysis of the deposited data

How the results depend on the processing

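No paired analysis was possible because the tables hold no value per sample; for the same reason no sample could be left out. At a q-value under 0.1 the called members at 16 µM numbered 1 (nfil3-6) instead of 0. At a q-value under 0.01 the called members between the doses numbered 0 instead of 1. The smallest q-value of any row in that comparison was 0.0194, so no gene could pass and this says nothing on stability. By p-values recovered from the authors' q-values, at least 3 members had an unadjusted p under 0.05 between the doses, beside at least 3.2% of all named genes. At 32 µM the count was 3 to 4 under the alternatives: 3 at a q-value under 0.01, where arntl1b was lost, and 3 over rows reaching 5 FPKM, which leave out npas2. For the count of 1 at 16 µM and these counts of 3, the share of all named genes at the same setting was not computed. Adding 1 to each FPKM gave a median ratio of 0.074 at 16 µM and 0.120 at 32 µM, since it shrinks the ratios of low genes. The other 21 alternatives left counts within 1.5 times and medians within 0.015 of the values reported, but some of them could not move a value. Centring the medians on the median of all rows, 0.00, changes nothing. Summing rows of a gene does nothing at 16 µM, where each member had 1 row. Adjusting again over rows reaching 1 FPKM repeats the same test at 32 µM, where all 26901 rows reach it. A threshold of 0.01 could not change the count at 16 µM, where the smallest q-value of any row was 0.0219. Leaving out rows that share a locus could not change a count, since among the members only arntl2, which was not called, shares its locus with another row. For single members neither a constant added to both levels nor centring on the median of all rows, 0.00, can turn the sign of a ratio, so these say nothing on stability. At 32 µM no gene near the level of clocka was called with a ratio under 0.45 in size.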
